A study of Ovis aries with 12 samples.

Results

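Of 26478 sheep genes counted in the blood of 12 Rasa Aragonesa rams, 4 are described here: ENSOARG00020016549, ENSOARG00020023278, ENSOARG00020017479 and ENSOARG00020009804. They were chosen by their fitted difference between sexually active and not active rams, a level more than 16-fold higher in active rams. That difference is therefore a description, and test calls on the same contrast are given later as background only. The deposited table names genes by Ensembl identifier only, and 0 of its identifiers could be matched to a symbol, so what the 4 genes encode and where they lie are not given here.

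The rams (Ovis aries) were adults of 1 breed, 6 classed as active (rams 1 to 6) and 6 as not active (rams 7 to 12). All 12 gave peripheral blood, with 1 mRNA library per animal and no treatment named in either class. The labels give no measure of behaviour behind the class, and no day or batch. Totals ran from 42692497 to 72826372 counts in 11 libraries, while active ram 1 had 13698096 counts and the lowest scaling factor (0.640 against 1.00 to 1.08).

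Whole blood RNA comes from all circulating cells, mainly white cells and platelets. Its level for a gene reflects both how many cells of each type are present and how much RNA each cell holds, and these cannot be told apart in bulk samples. Sexual activity of male sheep varies between animals of 1 flock and is influenced by brain circuits and gonadal hormones. Marker genes of blood cells were not analysed here, because symbols are needed for them.

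None of the 4 genes was high in all active rams. Counting a ram as high needed at least 10 counts and more than 4 times a reference level, which was the median of the not active rams or, where that was lower, the level of 3 counts in a not active library (0.0575 counts per M counts, CPM). By this rule ENSOARG00020016549 was high in 2 of 6 active rams, ENSOARG00020009804 in 3, and ENSOARG00020023278 and ENSOARG00020017479 in 4 each. The sets of rams differed from gene to gene. Each of the 6 active rams was high for 2 of the genes, except ram 2, which was high for 3. In shallow ram 1, 10 counts stand for a higher CPM than in any other library, so the rule was strictest there. For ENSOARG00020023278, 10 counts in ram 1 stand for more than the highest CPM of any ram (0.989). Ram 1 could thus not be counted as high for that gene at the level of any other ram. Among the not active rams, only ram 12 was high, and for 1 gene.

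**Figure D1:**
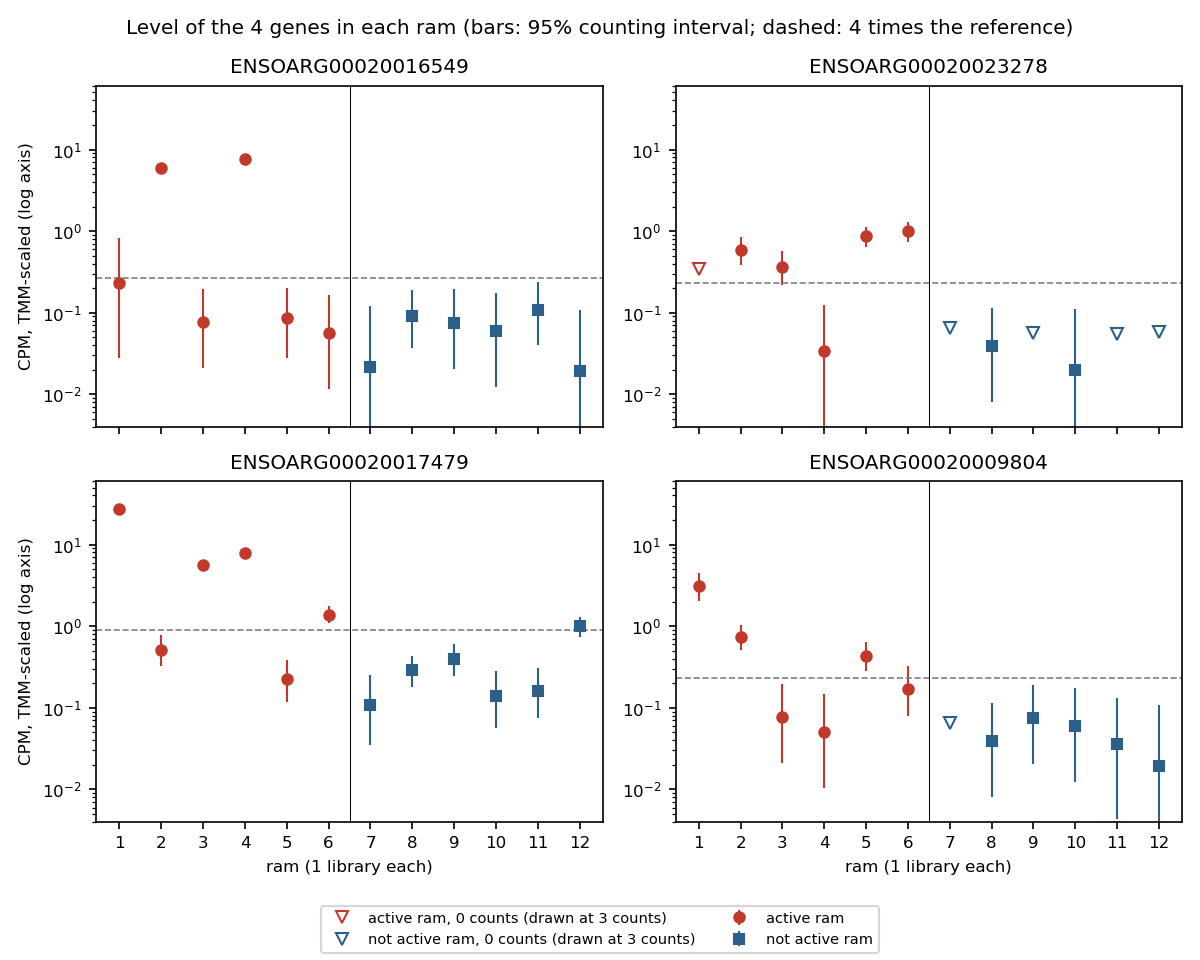
CPM on a log axis for each of the 4 genes in each ram, with red circles for active rams and blue squares for not active rams. Bars are 95% counting intervals (lower ends may run off the axis), open triangles mark 0 counts and are drawn at the level of 3 counts, and the dashed line is 4 times the reference. ENSOARG00020016549 lies above the line in rams 2 and 4 only, and the other genes in 3 or 4 active rams, while ram 12 is just above it for ENSOARG00020017479.

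ENSOARG00020016549 had 2, 261, 4, 443, 5 and 3 counts in active rams 1 to 6, and 1, 7, 4, 3, 6 and 1 counts in not active rams 7 to 12. Scaled for library size and composition, ram 4 was at 7.55 CPM (95% counting interval 6.87 to 8.29) and ram 2 at 5.86 CPM (5.17 to 6.61). The other 4 active rams lay between 0.0571 and 0.229 CPM, and the not active rams between 0.0195 and 0.108 CPM. Rams 2 and 4 were thus 86.9 and 112 times the reference, and the remaining 10 rams were low. From ram 1 downwards, the counting intervals of all neighbouring rams overlapped, so that the order among those 10 rams is not resolved at these counts. Ram 1 had only 2 counts, and the level of 3 counts in its shallow library is 0.343 CPM, above the level of every not active ram.

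The mean of ENSOARG00020016549 was 2.31 ± 3.45 CPM in the active group, against 0.0626 ± 0.0364 CPM in the not active group (SD over 6 rams each). The medians were 0.157 and 0.0674 CPM, much nearer to each other than the means. Rams 4 and 2 held 54.5% and 42.3% of the summed CPM of the active group. The fitted difference, from edgeR's quasi-likelihood fit to all genes with a count, was 35.4-fold (log2 5.15). It was 40.5-fold without ram 1, 24.9-fold without ram 2 and 19.4-fold without ram 4.

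ENSOARG00020023278 had 0, 26, 19, 2, 50 and 52 counts in active rams 1 to 6. In the not active rams it had 3 counts in ram 8, 1 in ram 10 and 0 in the other 4. Active rams 6, 5, 2 and 3 were at 0.989, 0.862, 0.584 and 0.366 CPM, and the counting intervals of these 4 overlapped from each ram to the next. Ram 4 was at 0.0341 CPM, under not active ram 8 (0.0391 CPM), and there was a gap between the intervals of ram 3 (0.220 to 0.571 CPM) and of ram 8 (0.00806 to 0.114 CPM). In ram 1, a count of 0 allows a level of up to 0.343 CPM by the 3-count limit, close to that of ram 3. Whether ram 1 belongs with the high or the low rams was therefore not detectable at its depth.

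This gene rests on few counts: 149 in the active group as a whole and 4 in the not active group. Per scaled library size the ratio of these sums was 45.2, with an exact 95% interval of 17.3 to 168 that covers counting error only. Means were 0.472 ± 0.414 CPM in the active group, against 0.00982 ± 0.0164 CPM in the not active group (SD over 6 rams each). The fitted difference was 35.8-fold (log2 5.16), and 40.9-fold without ram 1. Leaving out not active ram 8, which held 3 of the 4 counts of its group, gave 76.2-fold. With a prior count of 2, above edgeR's default, the fitted log2 difference was 3.41, under the 16-fold limit.

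ENSOARG00020017479 was the only gene of the 4 to pass edgeR's filter on low counts, which needed about 0.199 CPM in 6 libraries. It did so in 9 libraries, against 2, 4 and 3 libraries for ENSOARG00020016549, ENSOARG00020023278 and ENSOARG00020009804. Its counts were 236, 23, 289, 466, 13 and 73 in active rams 1 to 6 and 5, 22, 21, 7, 9 and 51 in not active rams 7 to 12. Ram 1 was highest at 27.0 CPM (95% counting interval 23.7 to 30.7), followed by ram 4 at 7.94 CPM and ram 3 at 5.57 CPM, and these 3 intervals did not overlap. Ram 6 was at 1.39 CPM and not active ram 12 at 0.996 CPM, with overlapping intervals. Active rams 2 and 5, at 0.516 and 0.224 CPM, lay within the range of the not active rams (0.109 to 0.996 CPM).

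The means of ENSOARG00020017479 were 7.10 ± 10.2 CPM in the active group, against 0.348 ± 0.335 CPM in the not active group (SD over 6 rams each). Ram 1 held 63.3% of the active sum and was 3.40 times the next ram. Without it the active mean was 3.13 ± 3.44 CPM (SD, n = 5), and the fitted difference went from 19.7-fold (log2 4.30) to 8.91-fold (log2 3.16). Leaving out not active ram 12 gave 30.7-fold. With library totals as the only scaling, which puts ram 1 at 17.2 CPM, the fitted log2 difference was 3.90.

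ENSOARG00020009804 had 27, 33, 4, 3, 25 and 9 counts in active rams 1 to 6, and 0, 3, 4, 3, 2 and 1 counts in not active rams 7 to 12. Ram 1 was at 3.09 CPM (95% counting interval 2.03 to 4.49), 4.17 times ram 2, the next at 0.741 CPM (0.510 to 1.04). Ram 5 was at 0.431 CPM and ram 6 at 0.171 CPM, 2.98 times the reference and below the limit for a high ram. Rams 3 and 4, at 0.0770 and 0.0511 CPM, were level with the not active rams, which reached 0.0753 CPM. Ram 1 stood clear of all others, and from ram 2 downwards the intervals of neighbouring rams overlapped. Those of rams 2 and 5 (0.279 to 0.636 CPM in ram 5) still lay above the intervals of all not active rams, which reached 0.193 CPM.

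Means of ENSOARG00020009804 were 0.760 ± 1.17 CPM in the active group, against 0.0383 ± 0.0270 CPM in the not active group (SD over 6 rams each). The summed counts were 101 and 13, a ratio of 9.42 per scaled library size (exact 95% interval 5.27 to 18.3, counting error only). That pooled ratio weights each ram by its depth, so the 27 counts of shallow ram 1 weigh less in it than in the ratio of means, 19.9. The fitted difference lay just above the limit at 16.1-fold (log2 4.01). Without ram 1, which held 67.7% of the active sum, it was 7.08-fold (log2 2.82). It also lay under 16-fold without active ram 2 (15.7-fold) or not active ram 7 (13.8-fold), 11 (15.8-fold) or 12 (14.7-fold). With library totals as the only scaling, which puts ram 1 at 1.97 CPM, the fitted log2 difference was 3.66, and with a prior count of 2 it was 3.17.

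**Figure D2:**
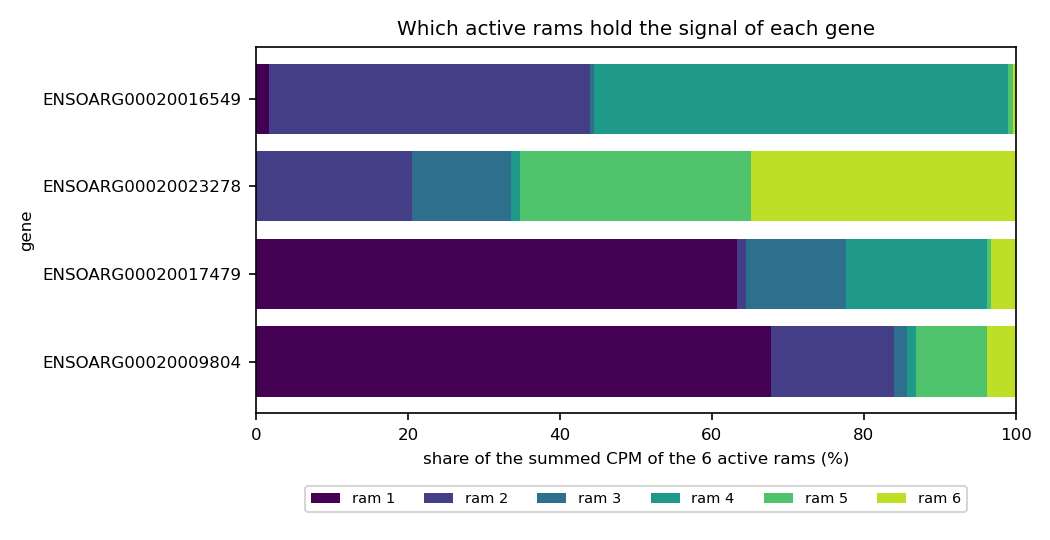
Share of the summed CPM of the 6 active rams (%) held by each ram, one bar per gene. Ram 1 holds 63.3% and 67.7% of ENSOARG00020017479 and ENSOARG00020009804, but 1.65% and 0% of ENSOARG00020016549 and ENSOARG00020023278.

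Leaving out active ram 1 thus divided the 4 genes. Without it, 2 of them remained over 16-fold, ENSOARG00020016549 and ENSOARG00020023278. Neither was counted as high in ram 1, but it had only 2 and 0 counts of them. Whether its level was high or low is not resolved at that depth. The other 2 went down 2.21-fold and 2.27-fold in their fitted difference, yet kept a higher active mean, 8.99 and 7.69 times that of the not active rams. DESeq2's fit gave 36.8, 44.1, 20.6 and 18.8-fold with all rams for ENSOARG00020016549, ENSOARG00020023278, ENSOARG00020017479 and ENSOARG00020009804. Without ram 1 it gave 43.1, 50.9, 8.96 and 7.59-fold in the same order. In 3 of the 4 genes, leaving out other single rams kept the fitted difference over 16-fold.

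**Figure D3:**
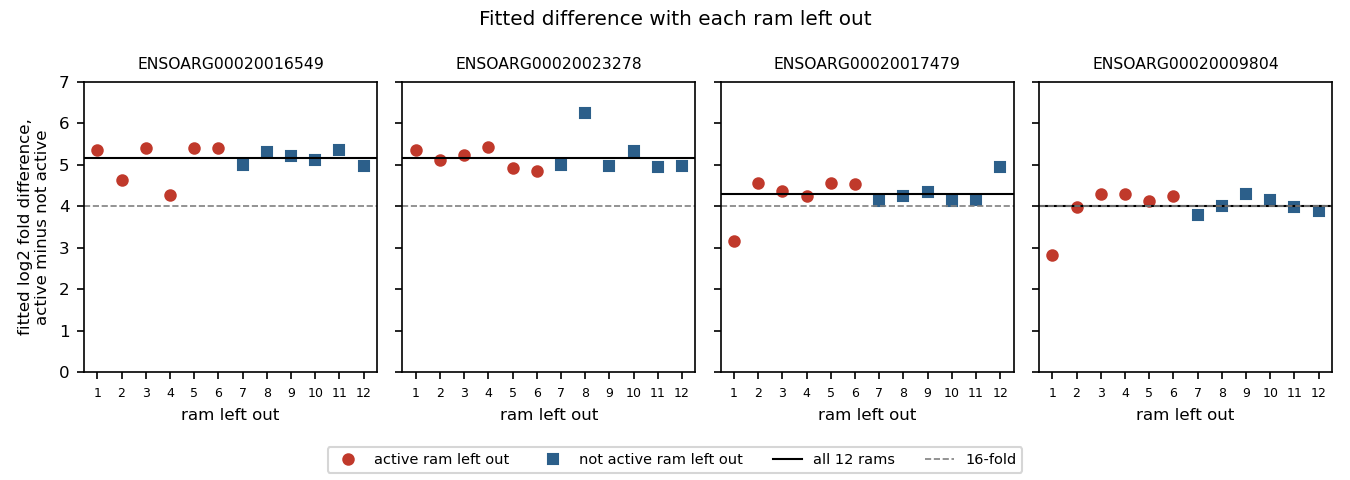
Fitted log2 fold difference (active minus not active, edgeR on all genes with a count) when each ram is left out, one panel per gene, with red circles for active and blue squares for not active rams left out. The solid line is the value with all 12 rams and the dashed line 16-fold. Leaving out ram 1 takes ENSOARG00020017479 to 3.16 and ENSOARG00020009804 to 2.82, and leaving out ram 8 takes ENSOARG00020023278 to 6.25.

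A fitted difference of this size was not confined to these genes. Among the 20635 genes with a count in any library, 113 (0.548%) were over 16-fold higher in active rams and 11 (0.0533%) over 16-fold lower. Of the 14374 genes that passed the filter on low counts, 39 (0.271%) were over 16-fold higher, ENSOARG00020017479 among them, and 0 over 16-fold lower by the same fit. The other 109 genes over 16-fold were mostly those of ram 1: 74 of them were high in ram 1 alone, and 17 were high in 2 or more active rams. Their median log2 difference went from 5.30 with all rams to 0.20 without ram 1, while the median over all genes with a count was 0.015 and -0.0041. Without ram 1, 29 genes (0.141%) were over 16-fold higher and 17 over 16-fold lower. Of the 29 higher genes, 21 were among those 109 and 2 among the 4 genes.

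A fitted rise over 16-fold does not by itself single out the 4 genes. In DESeq2's fit, where 126 genes passed that fold, they are the ones that also passed its adjusted p of 0.05. DESeq2 gave an adjusted p to 15522 of the 20635 genes, and how many of the 126 had one was not counted. That the 4 genes passed is not a further trait of them, since it rests on the same contrast. Without ram 1, 24 genes passed that fold in DESeq2's fit, and only 2 of the 4 genes passed its adjusted p of 0.05. How many of all genes passed it in that fit was not counted, so nothing is drawn from those 2. With all rams, DESeq2's Wald test with its own filter called 8 genes (0.0515%) as higher in active rams. edgeR's quasi-likelihood test called 0% of the 14374 filtered genes at an adjusted p of 0.05, in either direction, with 805 genes at an unadjusted p under 0.05. All of these calls use the contrast that chose the genes and are given as background only. In 12 of the 20635 genes (0.0582%) every active ram was above every not active ram, and none of the 4 was among them.

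**Figure D4:**
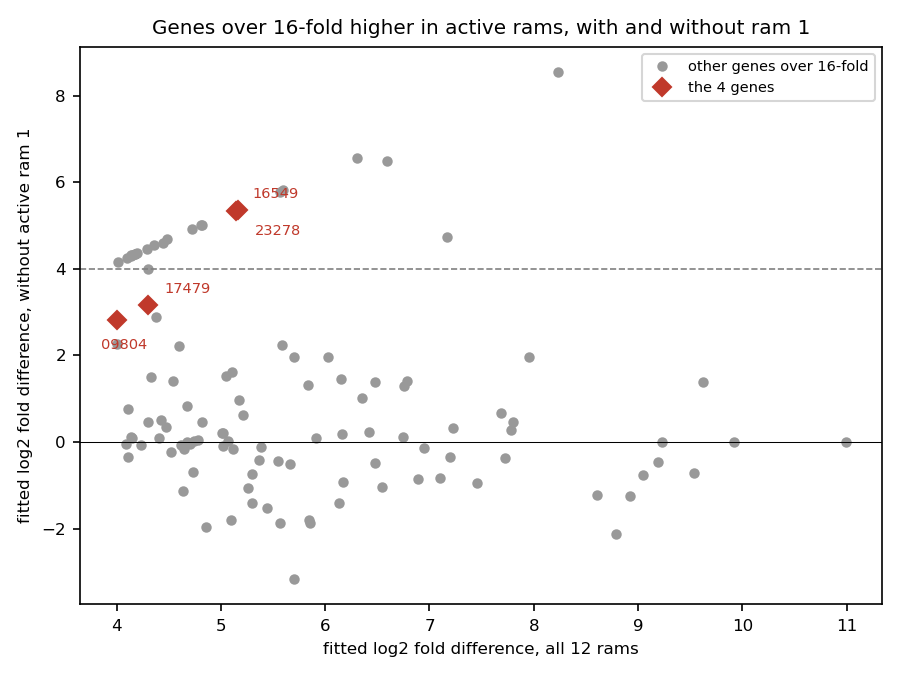
Fitted log2 fold difference with all 12 rams (horizontal) and without active ram 1 (vertical) for the 113 genes over 16-fold higher in active rams, with the 4 genes as red diamonds marked by the end of their identifiers. The dashed line is 16-fold and the solid line no difference. ENSOARG00020016549 and ENSOARG00020023278 coincide above the dashed line, and 44 of the other 109 genes lie at or below no difference without ram 1.

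Just inside the limit, among the filtered genes, ENSOARG00020017922 had a fitted difference of 16.04-fold and ENSOARG00020005101 of 17.3-fold. Just outside it, ENSOARG00020012716 was at 14.97-fold and ENSOARG00020013505 at 14.8-fold. In ENSOARG00020005101, ENSOARG00020012716 and ENSOARG00020013505 the difference was that of 1 ram: ram 1 was at 33.4, 1490 and 4323 CPM, and the highest of the other active rams at 0.341, 22.4 and 58.8 CPM. The largest fitted fall among the filtered genes, in ENSOARG00020018436, was 13.4-fold, with a not active group that ran from 0.0794 to 11.0 CPM around a median of 0.22 CPM.

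The 4 genes did not follow one pattern over the rams. Pearson correlations of log2 CPM between them ran from 0.04 (ENSOARG00020023278 and ENSOARG00020017479) to 0.50 (ENSOARG00020017479 and ENSOARG00020009804) over 12 rams. No pair shared more than 2 high active rams. ENSOARG00020023278 and ENSOARG00020009804, both high in rams 2 and 5, had an r of 0.35 over 12 rams and 0.82 over the 11 rams without ram 1. These values are descriptions, since the rams share the group difference that chose the genes, and low counts limit them.

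Each gene was also compared with 14373 other filtered genes for the one most like it over the rams. For ENSOARG00020017479 this was ENSOARG00020017922, with r = 0.96 (Spearman 0.93) over 12 rams and 0.93 over 11. Its active rams 1 to 6 were at 33.2, 0.696, 2.45, 6.22, 0.276 and 0.799 CPM, so that rams 1, 4 and 3 led in both genes and ram 5 was the lowest active ram in both. Among the not active rams, 12 and 9 were its highest at 1.23 and 0.941 CPM, the same pair as in ENSOARG00020017479 (0.996 and 0.395 CPM). The likeness thus held in both groups, and ENSOARG00020017922 was high in 5 active and in both of these not active rams.

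For ENSOARG00020016549 the most alike gene was ENSOARG00020021716, with r = 0.89 over 12 rams and 0.91 over 11. Rams 2 and 4 stood out in it too, at 4.60 and 4.86 CPM against at most 1.35 CPM in any other ram. The Spearman correlation was 0.48, so the likeness rests on those 2 rams. Over the 11 rams without ram 1, ENSOARG00020012397 came first (r = 0.92), again with rams 2 and 4 highest, at 1.80 and 1.59 CPM, and the other 9 of those rams at 0.891 to 1.22 CPM.

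ENSOARG00020009804 was most like ENSOARG00020002896 (r = 0.94, Spearman 0.82), which was at 122 CPM in ram 1 and 68.0 CPM in ram 2, and at 33.8 to 55.6 CPM in the other 10 rams. ENSOARG00020023278 was most like ENSOARG00020019416 (r = 0.85, Spearman 0.85), a gene with a narrow range of 15.5 to 26.6 CPM. Over 11 rams the first genes were ENSOARG00020024001 (r = 0.92) for ENSOARG00020009804, ENSOARG00020025295 (r = 0.88) for ENSOARG00020023278 and ENSOARG00020003934 (r = 0.96) for ENSOARG00020017479. With ram 1 included, all of these were lower, at r = 0.66, 0.76 and 0.35 in the same order. ENSOARG00020012397, named above for ENSOARG00020016549, was then at r = 0.63. The search took the highest of 14373 correlations over few rams, and 125 genes had r over 0.9 with ENSOARG00020017479 over the 11 rams.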

How the data were processed

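Blood RNA-seq libraries of 12 rams were compared, 6 active and 6 not active, by the class in each label. The authors deposited 1 table of raw counts per Ensembl gene identifier. Tools named in the submitters' processing notes are STAR 2.7.8a, HTSeq, FastQC and edgeR. What each did, the genome build, the strand setting and whether the molecular identifiers of the labels' protocols were used is not given in the sources used here, so PCR copies or reads of overlapping genes may be included. Intervals therefore cover counting error only. All columns matched a sample title, and 0 were left unmatched.

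From these counts edgeR 4.0.16 (R 4.3.3) was fitted with TMM scaling and the group as the only term (robust quasi-likelihood, default prior count, Benjamini-Hochberg adjustment). The planned filter, filterByExpr with a minimum count of 10, kept 14374 genes but only 1 of the 4. Fitted values of the 4 genes therefore come from the same fit to all 20635 genes with a count, and log2 4.30 for ENSOARG00020017479 was the same with the filter. The standard error of a fold is not given, since the genes were chosen on it. CPM use TMM factors of the filtered table, and counting intervals are exact Poisson at 95%. For correlations, log2 CPM had a prior count of 2. The script was tested on simulated data. The 66 pairs of libraries differed by at least 11.9 times counting noise (median chi-square), so none was treated as a duplicate.

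Besides the 4 genes, the text names the filtered genes nearest the 16-fold limit (2 on each side), the largest fall, and the gene most like each of the 4 over 12 and over 11 rams. The genes and these rules were chosen with earlier results of these data known. Alternatives were other scalings and filters, a prior count of 2, DESeq2 1.42.0, limma-voom 3.58.1, other limits for a high ram, and leaving out each ram.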

Additional observations from a re-analysis of the deposited data

Results flagged for a closer look

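In each of 8 sets of 6 rams (4 genes, 2 groups), the highest and lowest ram were compared with the rest of their group. By this rule 3 values lay far from the rest. The rule flags about 1 set in 20 where values are normally distributed. The values here are untransformed CPM, in some sets from very few counts, and the genes were chosen for large differences. That rate therefore does not apply to these sets, and no excess over chance is drawn from the 3 flags. Active ram 1 was at 27.0 CPM in ENSOARG00020017479, with the next active ram at 7.94 CPM. It was at 3.09 CPM in ENSOARG00020009804, with the next at 0.741 CPM. Not active ram 12 was at 0.996 CPM in ENSOARG00020017479, with the next not active ram at 0.395 CPM. Ram 1 is also the shallowest library, with 13698096 counts, and the part of its depth in these values was not tested. With library totals as the only scaling, ram 1 was at 17.2 CPM in ENSOARG00020017479, with ram 4 next at 8.21 CPM. In ENSOARG00020009804 it was then at 1.97 CPM, with ram 2 next at 0.773 CPM. Both gaps were smaller than with TMM scaling, on which the flags rest. The rule was not run with library totals, so it is not shown that the flags of ram 1 hold there.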

How the results depend on the processing

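The fitted difference of each of the 4 genes was positive under every alternative run, 18 for each of 3 genes and 19 for ENSOARG00020017479. It stayed over 16-fold in 17 of 18 for ENSOARG00020016549 (log2 2.78 with limma-voom), 17 of 18 for ENSOARG00020023278 (log2 3.41 with a prior count of 2), 16 of 19 for ENSOARG00020017479 and 9 of 18 for ENSOARG00020009804. The lowest values of the last 2 were log2 2.79 and 2.72, both with limma-voom. The number of genes over 16-fold higher, 39 with the filter on low counts, was 113 with no filter, 19 with at least 1 CPM in 6 libraries, 18 with limma-voom and 1 to 46 with 1 ram left out, the 1 being without active ram 1. DESeq2, fitted to all 20635 genes with a count and so to be set beside the 113, gave 126. Genes past an adjusted p of 0.05 were 0 by edgeR among the 14374 filtered genes, and 0 to 1 with 1 ram left out (1 without not active ram 7). DESeq2 gave 13 among the 15522 genes left by its own filter. These are unlike sets of genes, and only 1 of the 4 genes was in the set that edgeR tested. With 16 in place of 4 times the reference, 1 active ram was high for ENSOARG00020023278 and 1 for ENSOARG00020009804, and counting rams above the highest not active ram gave 5 for ENSOARG00020009804. The cause was not tested, except that fewer or more genes enter under other filters. The stricter filter left out all 4 genes, so it gave no value for them. In ram 1, with 13698096 counts, 3 counts stand for 0.343 CPM, which limits its low values.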
